A study of Mus musculus with 21 samples.

Results

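The genes described here carry newly made proteins into the endoplasmic reticulum (ER) and move them between the ER and the Golgi apparatus. They were taken by symbol from the deposited tables: the signal recognition particle (Srp9, Srp14 and others) and its receptor, the Sec61 channel with Sec62 and Sec63, the translocon-associated subunits Ssr1 to Ssr4, the signal peptidase subunits, the COPII and COPI vesicle coats, the Sec22 family and the p24 cargo receptors (Tmed genes). The rule, a pattern of gene symbols, found 59 of the 35266 genes in the tables. Of these, 56 passed the filter on low counts (over 1 CPM, the count scaled to library size, in at least 3 libraries), and Copz2, Tmed6 and Tmed11 did not. The 3 genes that served to label the set were Sec61a1 (ENSMUSG00000030082, chr6:88503600-88518905), Sec24d (ENSMUSG00000039234, chr3:123267495-123365635) and Srp68 (ENSMUSG00000020780, chr11:116245165-116274217; mm10), and all 3 were detected in every library.

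Secreted and membrane proteins enter the ER while they are being made. The signal recognition particle binds the signal sequence and the ribosome, docks on its receptor, and hands the chain to the Sec61 channel, where signal peptidase removes the signal sequence. Cargo then leaves in vesicles coated with COPII, and COPI vesicles return escaped proteins and receptors to the ER. Neurons that release peptides, such as AGRP and POMC neurons of the hypothalamic arcuate nucleus, send their peptide precursors along this route.

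The study asked how 24 h without food changes the transcriptome of AGRP neurons, which drive feeding, and of POMC neurons, which restrain it. AGRP neurons came from male NPY-hrGFP mice and POMC neurons from male Pomc-GFP mice (a Pomc-topazFP transgene), both on the C57BL/6J background and 46 to 56 postnatal days old. Fed mice had food ad libitum, food-deprived (FD) mice had water only, and every mouse was moved to a fresh cage for that day. There were 5 fed and 6 FD mice for AGRP neurons, and 5 fed and 5 FD mice for POMC neurons. Each library held 44 to 214 fluorescent cells picked by hand from 1 mouse, so the cells were defined by where the Npy or Pomc transgene was active. In such pooled cells, fewer cells of a type and less RNA per cell cannot be told apart.

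The libraries held 9822298 to 37663979 counts on genes, and a gene with 3 counts would stand at 0.0797 to 0.305 CPM. Agrp, at 2053 to 19928 TPM in AGRP libraries, did not exceed 69.3 TPM in any POMC library, and Pomc, at 7162 to 23063 TPM in POMC libraries, did not exceed 69.7 TPM in any AGRP library. Summed over 16 markers of astrocytes, oligodendrocytes, microglia and endothelium, levels were 36.5 to 54.7 TPM in fed and 28.4 to 45.5 TPM in FD AGRP libraries, and 30.99 to 40.2 and 25.5 to 55.8 TPM in fed and FD POMC libraries. In each group 2 of these markers were at 0 in every library, C1qa in all 4 groups, and 1 of the 11 tested, the astrocyte gene Aldh1l1, was called higher in FD AGRP neurons (0.217 to 5.15 TPM, against at most 0.045 TPM when fed); its part in the results was not tested.

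In AGRP neurons food deprivation raised genes of each of the 9 functional groups. Of the 56 members tested, 27 were higher at an adjusted p under 0.05 and 1 was lower, and 28 did not pass. Thus 48.2% of the tested members were called higher, where 5.87% of all 16513 genes tested were, and 1.79% were called lower, where 4.43% of all genes were. The median member stood 0.64 higher in FD than in fed AGRP neurons on the log2 scale, against -0.02 over all genes, and 50 of the 56 values were positive. All 27 were among the 52 members with a mean CPM over 20, of which they made 51.9%, where 10.7% of the 8205 genes at that level were called higher. With the further demand of a 2-fold change, 8 members passed, all higher, against 2.48% of all genes. In 19 members every FD library lay above every fed library in normalized CPM, against 4.08% of all genes.

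**Figure D1:**
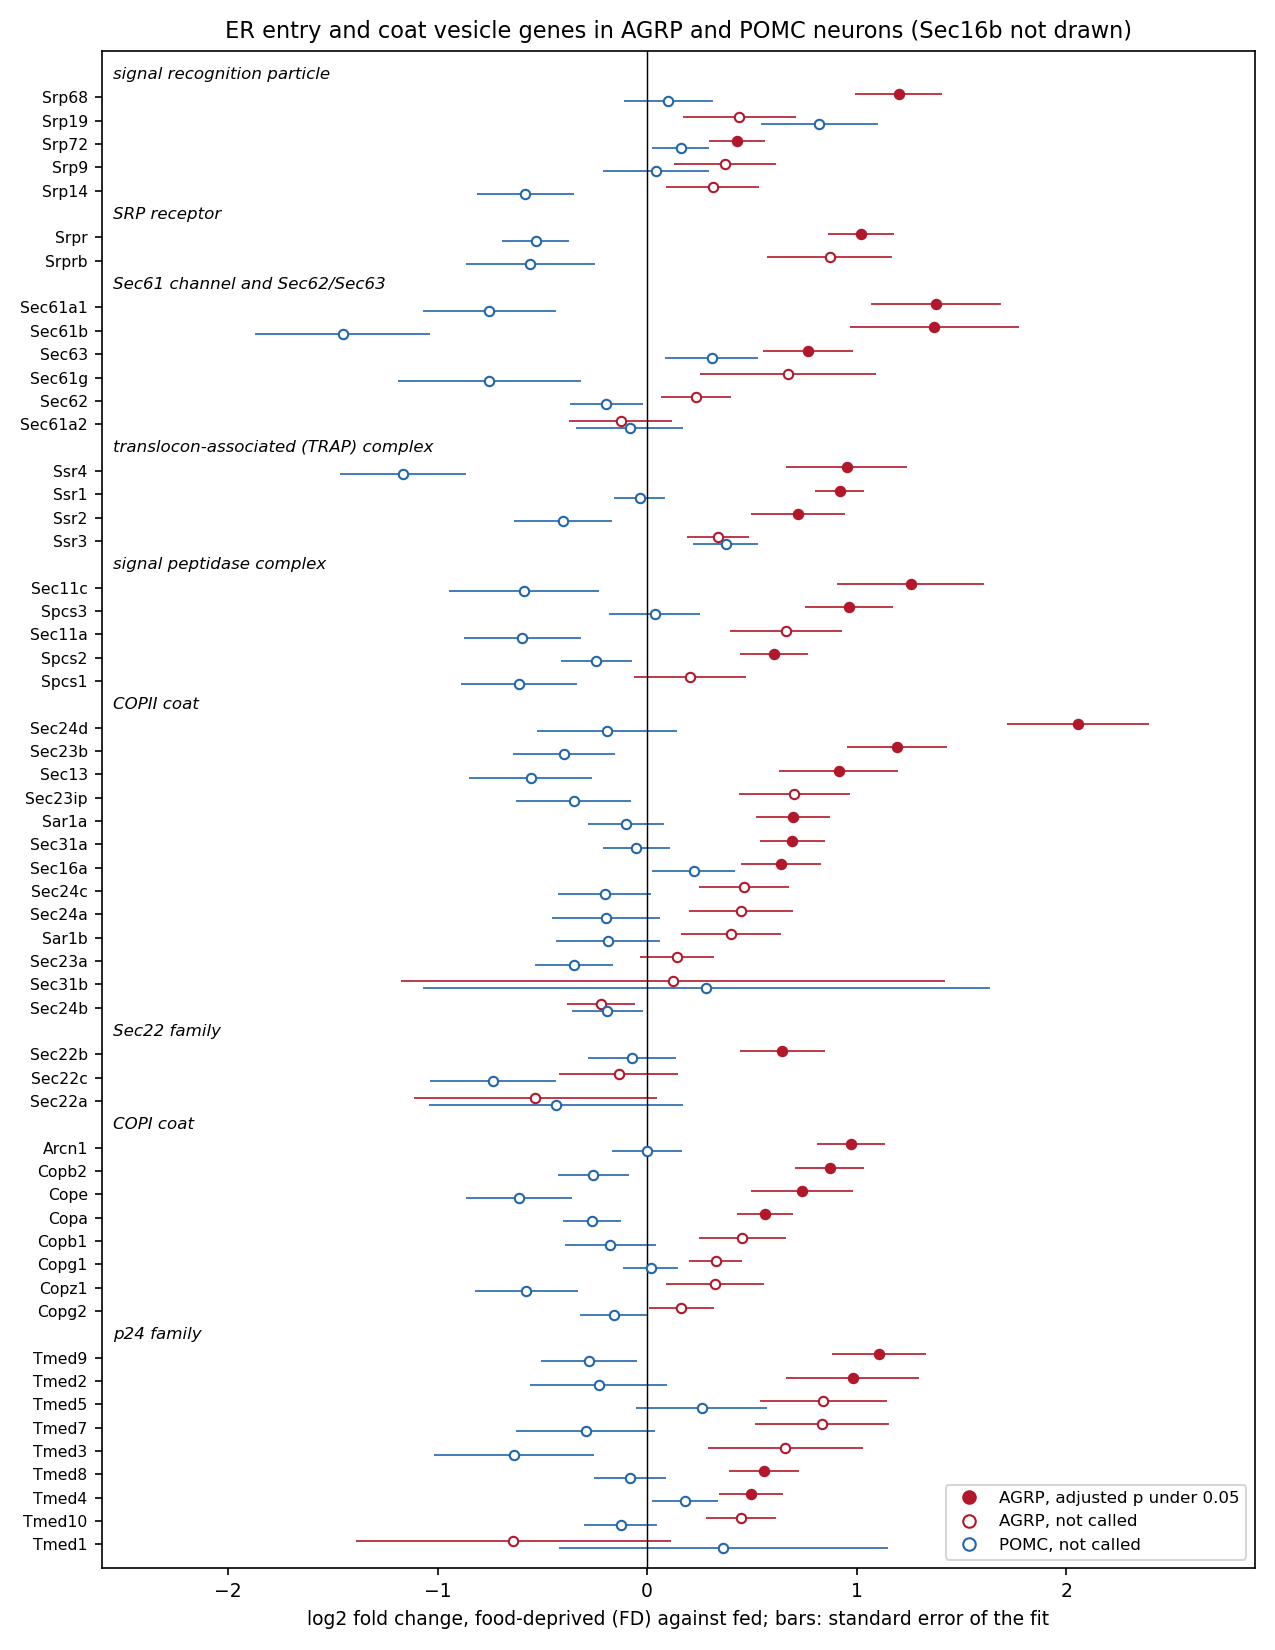
Log2 fold change, FD against fed, of 55 members (points) with its standard error (bars), for AGRP neurons in red and POMC neurons in blue, ordered by functional group. Filled points were called at an adjusted p under 0.05; 27 AGRP points are filled, none of the POMC points is, and Sec16b is left out for its few counts.

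Summed over all 59 members, the level was 6727 ± 180.5 TPM (SD, n = 5) in fed and 8615 ± 593 TPM (SD, n = 6) in FD AGRP neurons, with no overlap between 7034 TPM, the highest fed library, and 7868 TPM, the lowest FD library. In POMC neurons the sum was 6649 ± 210.0 TPM fed and 6276 ± 439 TPM FD (SD, n = 5 each), and these libraries overlapped. Of the 9 groups of genes, 6 had summed levels in AGRP neurons that did not overlap between fed and FD libraries: the SRP receptor, the Sec61 channel with Sec62 and Sec63, the translocon-associated complex, the COPII coat, the COPI coat and the p24 family. The sums for the signal recognition particle, signal peptidase and the Sec22 family overlapped.

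**Figure D2:**
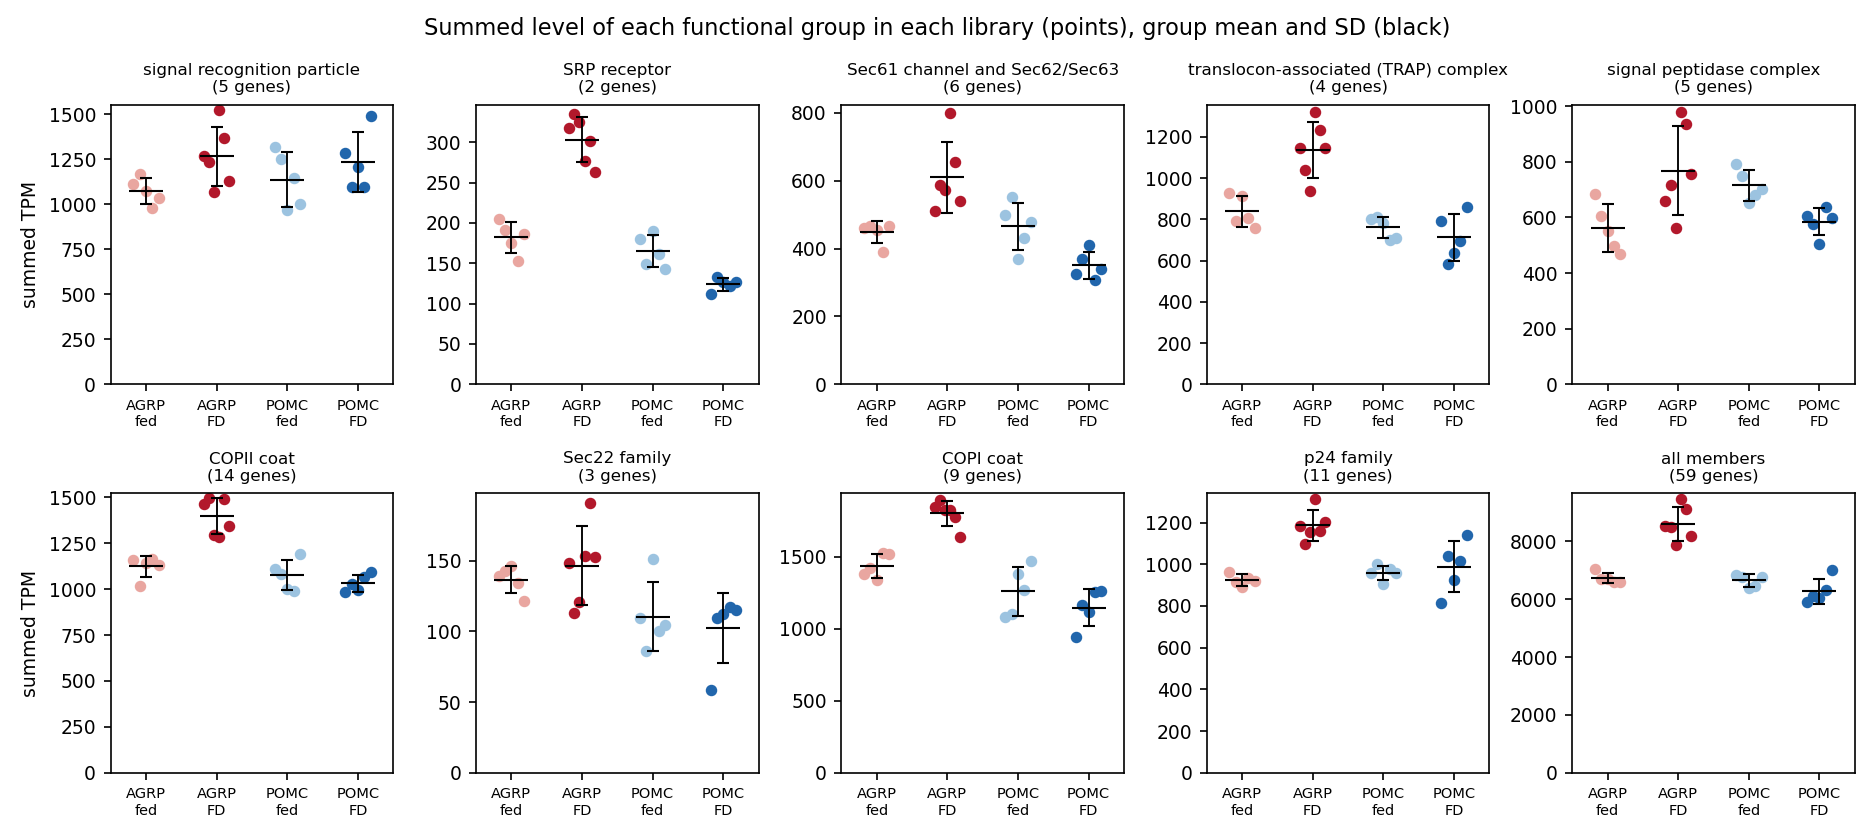
Summed TPM of the members of each functional group in every library (coloured points), with the group mean and SD in black. In the panel of all 59 members the 6 FD AGRP libraries (7868 to 9479 TPM) lie above all 15 others (5918 to 7034 TPM).

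The signal recognition particle had 5 members, of which 2 rose in AGRP neurons. Srp68, whose protein forms with Srp72 a heterodimer that anchors on the particle's RNA, was at 97.2, 112, 113, 120.4 and 159 TPM in the fed AGRP libraries and from 162 to 305 TPM, with a median of 227, in the FD libraries. Every FD library exceeded every fed one, and the log2 fold change was 1.20 ± 0.21 (SE, edgeR adjusted p = 0.000211). Its partner Srp72 rose by less, from 245 ± 26.7 TPM (SD, n = 5) to 278 ± 27.6 TPM (SD, n = 6), a log2 fold change of 0.43 ± 0.13 (SE, edgeR adjusted p = 0.0350). Srp9 and Srp14, which together form the Alu domain that slows the ribosome, and Srp19, which helps assemble the particle, had values of 0.31 to 0.44 and did not pass. Srp14, at 329 ± 63.3 TPM fed and 341 ± 35.5 TPM FD in AGRP neurons (SD), had the highest mean TPM over the 4 groups. Even so, Tmed4 stood above it in every group but fed POMC neurons. Copa also stood above it in FD AGRP neurons, and Srp9 in FD POMC neurons. The protein that binds the signal sequence itself, SRP54, stood under the symbols Srp54a and Srp54b, which the rule did not take; Srp54a did not exceed 2.38 TPM and Srp54b 10.2 TPM in any AGRP library, and reads of near-identical copies cannot be assigned with certainty.

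The receptor on the ER membrane has an alpha subunit, Srpr, which binds the particle, and a membrane-anchored beta subunit, Srprb. Srpr was at 117, 143, 146, 147 and 159.9 TPM in fed AGRP libraries and from 202 to 281 TPM, with a median of 251, in FD libraries. The groups did not overlap, and the level rose 2.03-fold, a log2 fold change of 1.02 ± 0.16 (SE, edgeR adjusted p = 4.79e-05). Srprb was at 39.6 ± 7.67 TPM fed and 59.9 ± 16.8 TPM FD (SD, n = 5 and 6), and its log2 difference of 0.87 ± 0.30 (SE) did not pass (edgeR adjusted p = 0.0591).

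Among the 6 genes of the Sec61 channel and its Sec62 and Sec63 partners, 3 rose in AGRP neurons. Sec61a1, the pore-forming alpha subunit, was at 9.48, 20.6, 21.8, 30.2 and 33.0 TPM in fed libraries and from 39.7 to 58.3 TPM, with a median of 49.3, in FD libraries. These values did not overlap, and the log2 fold change was 1.38 ± 0.31 (SE, edgeR adjusted p = 0.00337). Sec61b, the beta subunit, was at 55.2, 87.2, 113, 148 and 148 TPM in fed libraries and from 104 to 431 TPM, with a median of 216, in FD libraries. For Sec61b 1 FD library lay within the fed range, and the log2 fold change was 1.37 ± 0.40 (SE, edgeR adjusted p = 0.0255). Sec63, which recruits the chaperone BiP to the channel, rose by 0.77 ± 0.21 (log2, SE, edgeR adjusted p = 0.0181). The gamma subunit Sec61g (0.67 ± 0.42, log2 and SE), Sec62 (0.23 ± 0.17) and the second alpha subunit Sec61a2 (-0.13 ± 0.24) did not pass.

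The translocon-associated protein complex, which aids the entry of some proteins beside the channel, has 4 subunits, and 3 were called higher. Ssr1, the alpha subunit, had the lowest adjusted p of any member: it was at 181, 188, 194, 198 and 229 TPM in fed AGRP libraries and from 253 to 358 TPM, with a median of 311, in FD libraries. Its groups did not overlap, and its log2 fold change was 0.92 ± 0.12 (SE, edgeR adjusted p = 3.95e-06). Ssr4, the delta subunit, was at 135, 135, 177, 189.8 and 198 TPM fed and from 194 to 368 TPM, with a median of 265, in FD libraries. These ranges touched, and the log2 fold change was 0.95 ± 0.29 (SE, edgeR adjusted p = 0.0307). Ssr2 (0.72 ± 0.23, log2 and SE) was called as well, and Ssr3, among the 5 members with the highest mean TPM over the 4 groups and at 306 ± 24.0 TPM fed (SD), had a value of 0.34 ± 0.15 that did not pass.

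Signal peptidase cleaves the signal sequence with a catalytic subunit, Sec11a or Sec11c, and the accessory subunits Spcs1, Spcs2 and Spcs3. Sec11c was at 44.5, 79.4, 91.0, 98.2 and 152 TPM in fed AGRP libraries. In FD libraries it was at 82.8, 87.4, 96.6, 234, 236 and 343 TPM. The FD libraries at 82.8 to 96.6 TPM lay within the fed range and were those whose spike-in volume followed the cell number. The libraries overlapped, and the log2 fold change was 1.26 ± 0.35 (SE, edgeR adjusted p = 0.0189). Spcs3, needed for cleavage, went from 100.1 ± 20.4 TPM (SD, n = 5) to 162 ± 40.8 TPM (SD, n = 6), a log2 fold change of 0.96 ± 0.21 (SE, edgeR adjusted p = 0.00264), and Spcs2 rose by 0.61 ± 0.16 (log2, SE). Sec11a (0.66 ± 0.27, log2 and SE) and Spcs1 (0.20 ± 0.27) did not pass.

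COPII forms at ER exit sites, where the small GTPase Sar1 recruits an inner layer of Sec23 and Sec24, which selects cargo, and an outer cage of Sec13 and Sec31. Of its 14 members 6 rose and 1 was called lower in AGRP neurons. Sec24d had the largest rise of any member: 5.88, 8.03, 8.35, 12.4 and 14.8 TPM in fed libraries, and from 26.8 to 47.3 TPM, with a median of 32.8, in FD libraries. The lowest FD library was above the highest fed library, and the level rose 4.16-fold (log2 fold change 2.06 ± 0.34, SE, edgeR adjusted p = 0.000114). Sec23b was at 42.7, 58.4, 63.2, 67.1 and 67.2 TPM fed and from 90.4 to 144 TPM, with a median of 114, in FD libraries. It did not overlap either, with a log2 fold change of 1.19 ± 0.24 (SE, edgeR adjusted p = 0.00112). Sec13 (0.92 ± 0.28, log2 and SE), Sar1a (0.70 ± 0.18), Sec31a (0.69 ± 0.16) and Sec16a (0.64 ± 0.19), a scaffold of exit sites, were called higher too, whereas Sec23ip (0.70 ± 0.27), Sar1b (0.40 ± 0.24) and Sec31b (0.12 ± 1.299) did not pass. The member called lower, Sec16b, had few counts: 0, 36, 1, 24 and 4 in the fed libraries, and 0 in all FD libraries but 1, which had a single count, so no fold is given. That call held in 2 of the 11 fits that left out 1 library (edgeR adjusted p from 0.0423 to 0.122).

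COPI is a complex of 7 kinds of subunit that coats retrograde vesicles; 9 genes matched, 8 were tested and 4 rose in AGRP neurons, with no member below 0. Arcn1, the delta subunit, was at 108, 122, 144, 149 and 161 TPM in fed libraries and from 174 to 270.2 TPM, with a median of 224, in FD libraries. Its groups did not overlap, and the log2 fold change was 0.97 ± 0.16 (SE, edgeR adjusted p = 0.000143). Copb2, the beta-prime subunit, went from 206 ± 34.0 TPM (SD, n = 5) to 316 ± 36.9 TPM (SD, n = 6), a log2 fold change of 0.87 ± 0.16 (SE, edgeR adjusted p = 0.000585). Cope (0.74 ± 0.24, log2 and SE) and Copa (0.56 ± 0.13), the epsilon and alpha subunits, were called as well; Copa, at 302 ± 34.5 TPM fed (SD), was also among the 5 highest by that mean over groups. Copb1, Copg1, Copg2 and Copz1 had values of 0.16 to 0.45 and did not pass.

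The Sec22 family and the p24 family close the circuit: Sec22b is a SNARE of ER and Golgi membranes, and p24 proteins ride in both coats as cargo receptors. Sec22b rose by 0.64 ± 0.20 (log2, SE, edgeR adjusted p = 0.0386), whereas Sec22a (-0.53 ± 0.58) and Sec22c (-0.13 ± 0.28) did not pass. Of the 11 p24 genes, 9 were tested and 4 rose. Tmed9 was at 80.1, 91.4, 92.4, 96.7 and 153 TPM in fed AGRP libraries and from 141 to 256 TPM, with a median of 173, in FD libraries; 1 fed library lay inside the FD range. Its log2 fold change was 1.11 ± 0.22 (SE, edgeR adjusted p = 0.00121). Tmed2 was at 21.3, 26.9, 29.2, 29.3 and 29.4 TPM fed and from 36.4 to 58.5 TPM, with a median of 41.5, in FD libraries, with no overlap. Tmed2 rose by 0.98 ± 0.32 (log2, SE, edgeR adjusted p = 0.0436), Tmed8 by 0.56 ± 0.17, and Tmed4, at 343 ± 22.8 TPM fed and 408 ± 55.6 TPM FD (SD), by 0.50 ± 0.15. Tmed3, Tmed5, Tmed7 and Tmed10 had values of 0.45 to 0.84 and did not pass, nor did Tmed1 (-0.64 ± 0.75).

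**Figure D3:**
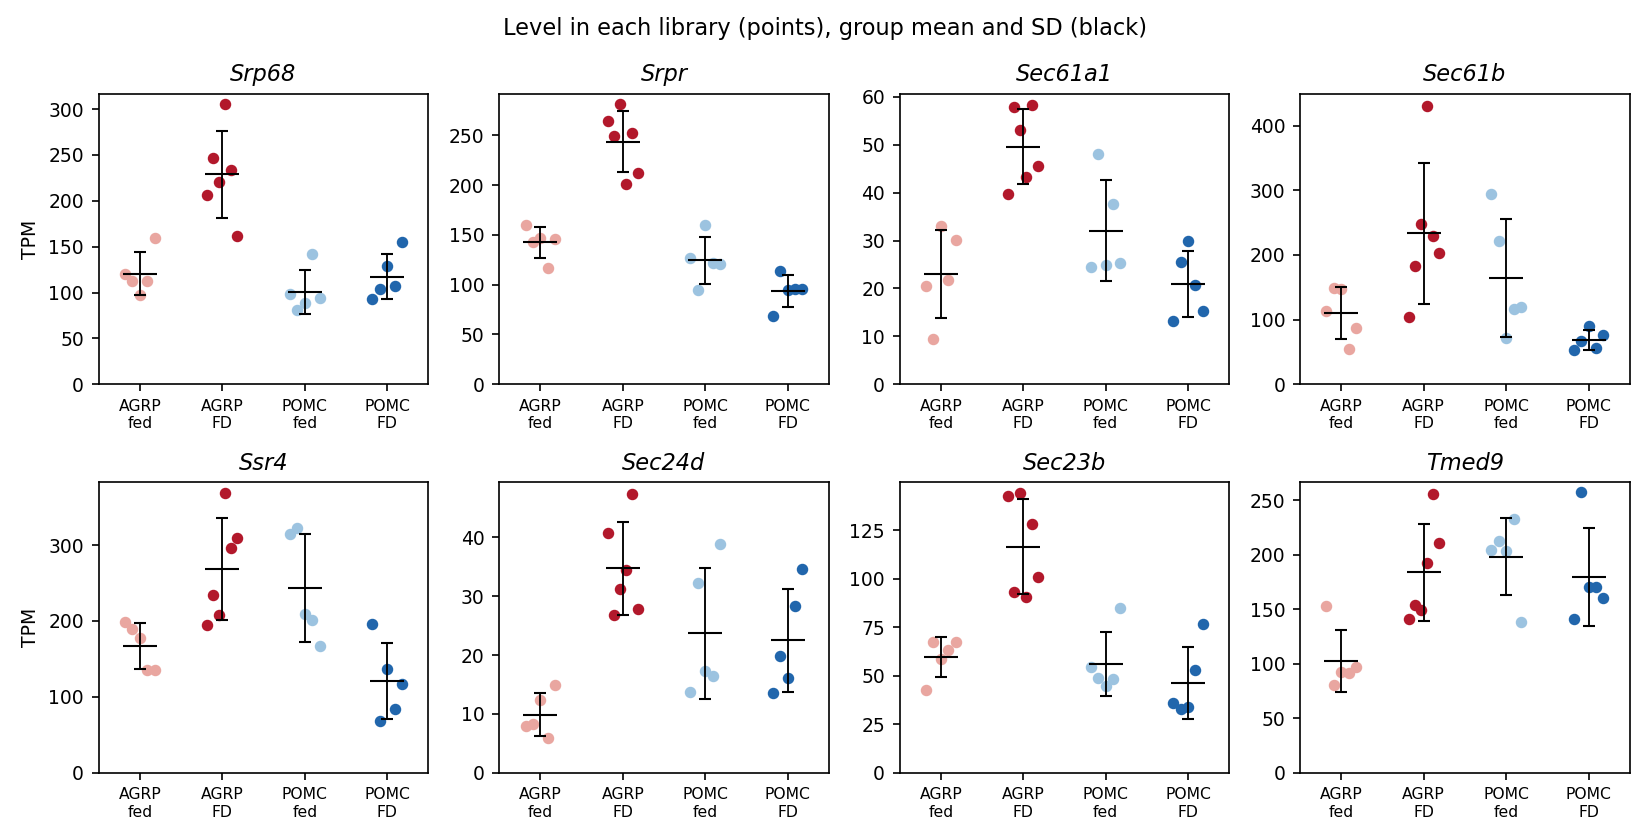
TPM of 8 members in every library (coloured points), with the group mean and SD in black. In Srp68, Srpr, Sec61a1, Sec24d and Sec23b each of the 6 FD AGRP libraries is above all 5 fed AGRP libraries; in Sec61b, Ssr4 and Tmed9 the ranges meet.

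How many members were called depended on how libraries were scaled and which entered. The scaling factors of the FD AGRP libraries (0.857 to 1.03) lay below those of the fed AGRP libraries (1.04 to 1.11), and Agrp and Npy took 0.514 to 1.51% of gene counts in FD against 0.218 to 0.476% in fed libraries. A link between these shares and the scaling factors was not tested. Scaled by library totals alone, a setting added after these factors were seen, the median of all genes moved to -0.21 and 11 members were called higher, where 3.44% of all genes were; the members' median, 0.45, stood 0.66 above that of all genes, against 0.67 with the factors. Over all genes that scaling turned 969 higher and 731 lower calls into 568 higher and 1070 lower. Scaled per cell by the spike-in RNA, no member was called by edgeR and 2 stood at an unadjusted p under 0.05, where 6.68% of all genes did, with a members' median of 0.52 against -0.08 over all genes. Over all genes that scaling left 52 higher and 45 lower calls. The spike-in counts varied widely: FD AGRP replicates 4 and 6, both given 10 µl, had 8514459 and 1194609. The part of this spread in the loss of calls was not tested. Leaving out fed replicate 1 or FD replicate 4 left 17 members called higher. Over all genes the 969 higher calls fell to 754 and 801 in these fits. Of the 28 called members, 14 kept the call in all 11 fits that left out 1 library: Srp68, Srpr, Sec61a1, Ssr1, Spcs2, Spcs3, Sec24d, Sec23b, Sar1a, Sec31a, Arcn1, Copb2, Copa and Tmed9. The other 14 lost it in at least 1 of these fits. Sec11c and Sec63 kept it in 9, Sec61b and Sec16a in 7, Ssr4 and Tmed8 in 6, Ssr2 and Sec22b in 5, Cope, Sec13, Srp72 and Tmed4 in 4, Tmed2 in 3 and Sec16b in 2. Within the libraries that received 10 µl of spike-in RNA (2 fed and 2 FD), the members' median was 0.58 with 3 of 54 called higher, where 1.66% of all genes were, and within those whose spike-in volume followed the cell number (2 fed and 3 FD) it was 0.53 with none called by edgeR and 20 of 54 at an unadjusted p under 0.05, where 11.5% of all genes were.

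Several coat and channel subunits come as paralogs, and within families the rise was uneven in AGRP neurons. Sec24d made up 4.93 ± 1.74% (SD, n = 5) of the summed Sec24a to Sec24d TPM in fed and 16.5 ± 4.16% (SD, n = 6) in FD libraries, from at most 6.78% to at least 12.6%. The other Sec24 genes did not pass: Sec24a had a log2 value of 0.45 ± 0.25 (SE), Sec24c 0.46 ± 0.21 and Sec24b -0.22 ± 0.16. Sec23b made up 32.4 ± 6.28% of Sec23a and Sec23b together when fed and 49.8 ± 8.86% in FD libraries (SD), and Sec61a1 23.2 ± 7.49% and 47.4 ± 8.55% of the alpha subunits. In Sec23b every FD share exceeded every fed share, and in Sec61a1 the highest fed share, 32.1%, was just under the lowest FD share, 32.5%. Sec23a, whose level was 126 ± 19.0 TPM fed and 117 ± 19.8 TPM FD (SD), had a log2 value of 0.14 ± 0.18 (SE). By contrast Sec11c (55.3 ± 14.99% and 61.9 ± 13.1% of Sec11a and Sec11c), Sar1b (48.9 ± 7.03% and 42.4 ± 8.72% of the Sar1 pair) and Copg2 (34.9 ± 3.36% and 32.5 ± 1.15% of the Copg pair) had fed and FD shares that overlapped. Sec31b and Copz2 made up little of their pairs, with at most 3.37% and 0.365% in AGRP libraries. These shares were not tested, and each is a ratio within a library, free of its scaling.

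**Figure D4:**
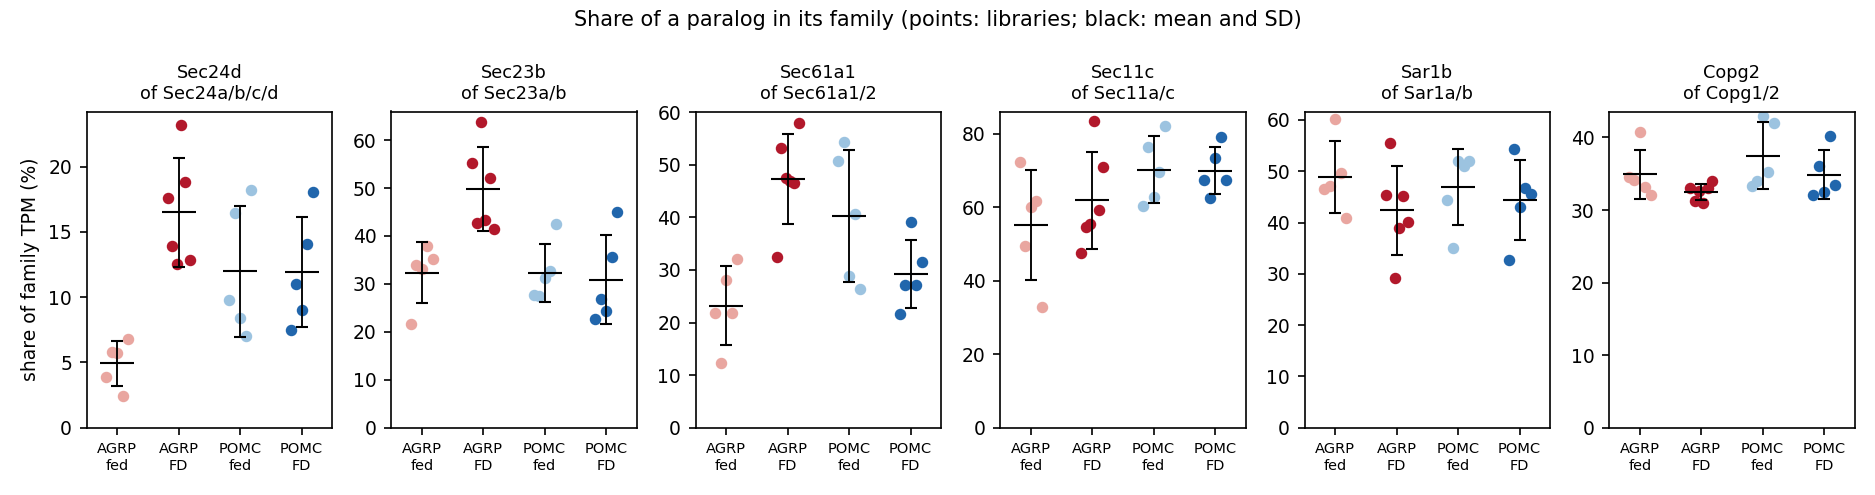
Share of 1 paralog in the summed TPM of its family, in percent, in every library (coloured points), with the group mean and SD in black. For Sec24d, Sec23b and Sec61a1 the FD AGRP libraries lie above the fed AGRP libraries; for Sec11c, Sar1b and Copg2 the groups overlap.

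The remaining low members were near 0 throughout. Tmed11 had no count in any library, Copz2 did not exceed 0.801 TPM, Tmed6 did not exceed 6.04 TPM and Sec31b did not exceed 5.47 TPM. Sec16b reached 2.25 TPM, in 1 FD POMC library.

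In POMC neurons no member was called in either direction by edgeR, where 0.182% of all genes were called higher and 0.194% lower. DESeq2 called 2 of 56 members lower, Ssr4 and Sec61b, where it called 1.24% of all genes lower, and limma-voom called none. At an unadjusted p under 0.05 there were 12 members, 10 lower and 2 higher in FD, where 12.2% of all genes were under it in either direction. The median member stood at -0.20 on the log2 scale, against -0.02 over all genes, and 41 of 56 values were negative. No member had FD libraries all above the fed ones, where 1.08% of all genes did. None had them all below either, and the share of all genes below is not given here.

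The members with the lowest p in POMC neurons were Ssr4 and Sec61b. Ssr4 was at 167, 201, 209, 315 and 323 TPM in fed POMC libraries and at 68.2, 83.8, 117, 136 and 196 TPM in FD libraries, with a log2 difference of -1.17 ± 0.30 (SE, edgeR adjusted p = 0.0719). Sec61b was at 71.0, 117, 120.1, 221 and 295 TPM fed and at 52.7, 56.7, 67.4, 76.0 and 90.2 TPM in FD libraries, with a log2 difference of -1.45 ± 0.42 (SE, edgeR adjusted p = 0.108). In both genes the groups overlapped by the lowest fed and the highest FD libraries. The 2 highest fed values in both genes were those of fed replicates 1 and 2. Their spike-in volume followed the cell number, and no FD POMC library was in that set. Leaving out 1 library brought Ssr4 past the threshold in 2 of 10 fits.

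The genes with clear rises in AGRP neurons had no such difference in POMC neurons. Sec24d was at 13.7, 16.5, 17.2, 32.2 and 38.9 TPM in fed and 13.5, 16.2, 19.9, 28.3 and 34.6 TPM in FD POMC libraries, a log2 difference of -0.19 with a 95% interval of -0.85 to 0.46. Srp68 differed by 0.10, with an interval of -0.32 to 0.52, and Sec61a1 by -0.75, with an interval of -1.37 to -0.13 and an edgeR adjusted p of 0.305. Srpr was at 94.3, 121, 121, 127 and 160.1 TPM fed and 68.6, 94.6, 95.4, 95.8 and 113 TPM in FD libraries (-0.53 ± 0.16, log2 and SE, edgeR adjusted p = 0.131). Summed with Srprb, the receptor stood at 143 to 189.8 TPM in fed and 112 to 133 TPM in FD POMC libraries, without overlap and lower in FD. The signal peptidase sum did not overlap either, at 651 to 793 TPM fed and 505 to 636 TPM FD, and the other 7 groups of genes had sums that overlapped. Srp19 (0.82 ± 0.28) and Ssr3 (0.38 ± 0.16) were the 2 members on the higher side at an unadjusted p under 0.05 (log2, SE).

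Whether the change differed between the cell types was tested directly, as the AGRP change less the POMC change. Of 56 members 20 were called, all with the higher change in AGRP neurons, which is 35.7%, where 4.08% of all genes were called in that direction and 2.63% in the other. Among genes with a mean CPM over 20, 7.40% were called in that direction, against 38.5% of the 52 members at that level. The median member differed by 0.81 on the log2 scale, against 0.01 over all genes. This test shares its libraries with the comparisons above and is no separate evidence on them.

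By role, the 20 were Srp68 of the signal recognition particle, both receptor subunits, Sec61a1 and Sec61b, Ssr1, Ssr2 and Ssr4, Sec11a, Sec11c and Spcs2, Sec13, Sec23b, Sec24d and Sec31a of COPII, Arcn1, Copa, Copb2 and Cope of COPI, and Tmed9. Differences were largest for Sec61b (2.82 ± 0.58, log2 and SE, edgeR adjusted p = 0.00250), Sec24d (2.25 ± 0.47, edgeR adjusted p = 0.00302), Sec61a1 (2.13 ± 0.44, edgeR adjusted p = 0.00277) and Ssr4 (2.12 ± 0.42, edgeR adjusted p = 0.00155). The lowest adjusted p was that of Srpr (1.55 ± 0.22, edgeR adjusted p = 5.01e-05). In Sec61b and Ssr4 the difference joined a rise in AGRP neurons and a negative value in POMC neurons, while Srp68, Ssr1 and Arcn1 had POMC values of -0.04 to 0.10. The highest fed POMC libraries in Sec61b and Ssr4 were of a spike-in set without FD POMC libraries. Both genes were also called with the spike-in set as a block. That fit cannot decide the point, since it takes a set's effect to be the same in both cell types. Sec11a and Srprb passed here without passing in either cell type alone. Of the 21 fits that left out 1 library, Sec11a, Srprb and Sec31a were called in 9, Ssr2 in 13, Sec13 in 19, Sec11c and Spcs2 in 20, and the other 13 in all. Scaled by library totals alone, 13 members were called higher, where 2.72% of all genes were, while over all genes 674 higher and 434 lower calls became 449 and 670. Scaled per cell by the spike-in RNA, none was called by edgeR and 17 stood at an unadjusted p under 0.05, where 9.63% of all genes did, and the members' median of 1.86 stood against 1.04 over all genes.

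Between the cell types, fed mice differed in few members. Comparing fed AGRP with fed POMC neurons, 1 member was called higher, Sec16a, and 3 lower, Sec24d, Sec11c and Tmed9, where 3.33% of all genes were called higher and 4.24% lower. Sec24d was 1.44 ± 0.34 lower in fed AGRP neurons (log2, SE, edgeR adjusted p = 0.00584), Sec11c 1.31 ± 0.36 lower (edgeR adjusted p = 0.0215) and Tmed9 1.16 ± 0.23 lower (edgeR adjusted p = 0.000938). Sec16a was 0.65 ± 0.20 higher (log2, SE, edgeR adjusted p = 0.0392), a call that held in 5 of the 10 fits that left out 1 library. Sec61a1 (-0.69 ± 0.32) and Srp68 (0.07 ± 0.21) did not pass, and the members' median was -0.08 against -0.01 over all genes.

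In FD mice the difference was broad. FD AGRP exceeded FD POMC neurons in 29 of 56 members, or 51.8%, where 9.28% of all genes were called higher, and 1 member, Sec16b, was lower, where 9.27% of all genes were; among genes with a mean CPM over 20, 14.9% were called higher. Scaled per cell by the spike-in RNA, 5 members were called higher, where 5.40% of all genes were, and the members' median of 1.80 stood against 1.10 over all genes. The largest differences were in Sec61b (2.00 ± 0.41, log2 and SE), Srpr (1.56 ± 0.16), Sec23b (1.50 ± 0.24), Sec61a1 (1.44 ± 0.31), Cope (1.40 ± 0.25), Sec22c (1.37 ± 0.29), Ssr4 (1.36 ± 0.29), Ssr2 (1.27 ± 0.23), Tmed7 (1.25 ± 0.32), Copb2 (1.19 ± 0.17), Srprb (1.19 ± 0.30) and Srp68 (1.18 ± 0.21). For Srpr the FD AGRP libraries, from 202 TPM, were all above the FD POMC libraries, up to 113 TPM. Sec24d, which had been lower in fed AGRP neurons, was 0.81 ± 0.32 higher in FD AGRP neurons but did not pass (edgeR adjusted p = 0.0812), with 26.8 to 47.3 TPM against 13.5 to 34.6 TPM. Tmed9 and Sec11c, likewise lower in fed AGRP neurons, had FD values of 0.23 ± 0.22 and 0.54 ± 0.35 that did not pass. AGRP and POMC neurons came from different transgenic lines and different animals, which cannot be told apart from the cell type. Age and spike-in volume differed in part as well. FD AGRP mice were 47 to 55 and FD POMC mice 54 to 56 postnatal days old. In 3 FD AGRP libraries and no FD POMC library the spike-in volume followed the cell number.

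**Figure D5:**
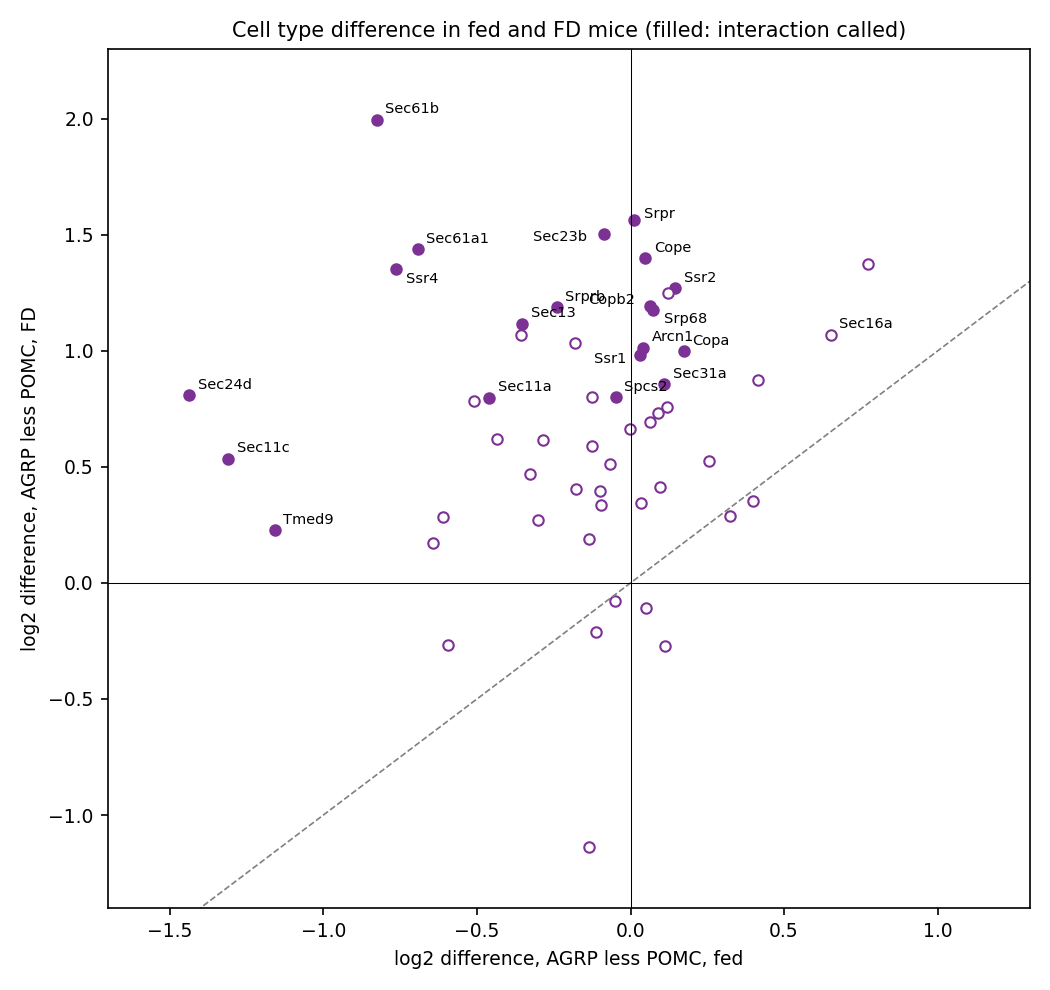
Log2 difference of AGRP less POMC neurons in fed mice (x axis) and in FD mice (y axis) for 55 members (Sec16b left out); filled points were called in the test of the changes, and the dashed line marks equal differences. The vertical distance from the line is the difference of the changes, and Sec24d, Sec11c and Tmed9, at -1.44, -1.31 and -1.16 in fed mice, are farthest to the left.

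Other genes of the same route, listed by role and not matched by the rule, were counted in the same fit. Of 57 listed, 53 were tested, and 14 were higher and none lower in FD than in fed AGRP neurons, with a median of 0.44. Of all genes 5.87% were called higher and 4.43% lower in that comparison. None was called in POMC neurons. In the test of the changes 13 were called, all higher, where 4.08% of all genes were called higher. The largest values in AGRP neurons were in Serp1, a Sec61-associated protein (1.53 ± 0.41, log2 and SE), Surf4, a cargo receptor (1.34 ± 0.21), Tram1, which contacts chains in the channel (1.12 ± 0.20), Gorasp2, a Golgi stacking protein (0.87 ± 0.18), and Tfg, which organises COPII at exit sites (0.85 ± 0.17). By group, 2 of 10 tested genes of targeting and translocation were higher, and 5 of 13 of ER exit and cargo receptors. So were 3 of 12 of retrieval and ARF, and 4 of 18 tethers and SNAREs. Among all genes with a mean CPM over 20, 10.7% were called higher. Clathrin and adaptor genes, which coat vesicles past the Golgi and at the plasma membrane, gave 7 higher and 1 lower of 21 in AGRP neurons. Their median was 0.33, and the shares over all genes were again 5.87% higher and 4.43% lower. The 7 were clathrin heavy chain (Cltc) and subunits of AP-1 and AP-2, and the lower gene was Ap3m2 of AP-3 (-1.10 ± 0.18, log2 and SE).

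The members' promoters were searched for short elements known from genes of the unfolded protein response, the program by which cells enlarge the ER under load. RefSeq windows on the GRCm38 build, from 250 bases before to 50 after the start of transcription, were matched for 49 of the 59 members (53 windows). On either strand the unfolded protein response element TGACGTGG was in 5 windows, those of Sec24d, Copb2, Copb1, Sec23a and Sec16b. That is 9.43% of the members' windows, against 0.676% of all 32851 windows and 0.705% of those of protein-coding genes. Its core ACGTGG, contained in it and searched only after the longer element had been counted, was in 24 windows (45.3%) against 8.31% of all windows and 9.06% of those of protein-coding genes. These were windows of 23 genes. Among them Copb2, Sar1a, Sec13, Sec24d, Sec31a, Sec63, Ssr1 and Tmed9 were called higher in FD AGRP neurons, and the others were not. Of all tested members 48.2% were called higher. The ER stress element and ERSE-II were in none of the 53 windows and in 0.119% and 0.0365% of all windows. Members' windows had a mean GC content of 58.6%, against 53.8% in all windows and 56.2% in those of protein-coding genes, and these shares were not tested. Of the 5 genes with the longer element, Sec24d and Copb2 rose in FD AGRP neurons, Copb1 and Sec23a did not pass, and Sec16b had few counts. The windows of the first 4 are shown to place the element, with TGACGTGG or its complement CCACGTCA in capitals, 5′ to 3′ on the gene's strand; they lie at chr3:123267246-123267545 (plus strand, Sec24d), chr9:98563481-98563780 (plus strand, Copb2), chr7:114254631-114254930 (minus strand, Copb1) and chr12:59011968-59012267 (minus strand, Sec23a).
Sec24d: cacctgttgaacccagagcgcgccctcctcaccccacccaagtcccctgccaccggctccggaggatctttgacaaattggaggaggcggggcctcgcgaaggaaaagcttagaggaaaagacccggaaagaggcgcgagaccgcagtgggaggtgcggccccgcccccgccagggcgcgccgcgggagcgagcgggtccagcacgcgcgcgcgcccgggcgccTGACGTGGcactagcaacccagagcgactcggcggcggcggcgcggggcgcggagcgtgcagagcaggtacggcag
Copb2: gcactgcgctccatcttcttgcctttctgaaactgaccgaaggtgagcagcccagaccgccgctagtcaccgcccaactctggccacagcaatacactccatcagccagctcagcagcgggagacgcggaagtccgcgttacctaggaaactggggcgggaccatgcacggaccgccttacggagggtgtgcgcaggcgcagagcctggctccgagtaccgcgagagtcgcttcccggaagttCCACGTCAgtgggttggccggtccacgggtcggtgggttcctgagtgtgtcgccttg
Copb1: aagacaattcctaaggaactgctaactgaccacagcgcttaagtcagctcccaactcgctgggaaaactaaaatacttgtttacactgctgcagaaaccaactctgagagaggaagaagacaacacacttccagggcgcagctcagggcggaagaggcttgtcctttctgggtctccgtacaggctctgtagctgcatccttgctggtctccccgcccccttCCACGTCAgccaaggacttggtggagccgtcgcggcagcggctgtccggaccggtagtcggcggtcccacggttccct
Sec23a: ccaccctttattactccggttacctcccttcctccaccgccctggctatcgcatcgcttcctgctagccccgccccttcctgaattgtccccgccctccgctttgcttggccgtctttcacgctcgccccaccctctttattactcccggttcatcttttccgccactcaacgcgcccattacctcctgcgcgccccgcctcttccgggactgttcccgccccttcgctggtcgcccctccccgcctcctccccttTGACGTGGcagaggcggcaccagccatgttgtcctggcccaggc
The element began at base 225 of 300 in Sec24d, 244 in Copb2, 223 in Copb1 and 257 in Sec23a, where the start of transcription follows base 250. A match of letters is a description and does not show that a factor binds there.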

How the data were processed

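RNA from 21 pools of GFP-labelled neurons was amplified and sequenced with ERCC spike-in RNA. The authors' tables give, per gene and library, HTSeq counts and TPM. The deposited counts are whole numbers of reads, not normalized, and the deposited TPM values are scaled by the authors for gene length and library size. Tools named in the submitters' notes and the study's methods are CASAVA, cutadapt 1.7.1, Bowtie2 2.1.0, STAR 2.4.0i and HTSeq 0.6.1p1, on the mm10 genome. Counting did not use strand, so overlapping and antisense genes cannot be told apart.

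The 5 summary and 92 ERCC entries were kept out of library sizes and tests; reads on no feature were 25.6 to 55.3% of those counted. Gene counts per library ran from 9822298 to 37663979, and a floor of 3 counts covers counting error only. Genes with over 1 CPM in at least 3 libraries (16513) were scaled by TMM and fitted over all 4 groups with edgeR 4.0.16 quasi-likelihood tests (R 4.3.3, limma 3.58.1), with Benjamini-Hochberg adjustment over all genes, 2-sided, at 0.05. The stricter rule also asked for a change beyond 1 on the log2 scale, either way, and for a group mean above 20 CPM. Adjusted p-values printed with "edgeR" come from this fit; intervals are normal 95% intervals from the standard error. TPM values describe levels; shares and sums were not tested. Limma-voom, DESeq2 1.42.0, other scalings, filters and samples were alternatives. The steps were tested on simulated data. Tables and plots used matplotlib 3.10.9, pandas 2.3.3, scipy 1.17.1 and numpy 2.4.6 under Python 3.11.15.

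Libraries differed in the volume of spike-in RNA (1 µl, 10 µl or by cell number), here treated as a set. The set went with age. Mice of the cell-number set were 46 to 47 postnatal days old for AGRP neurons and 51 for POMC neurons. The other mice were 51 to 55 and 54 to 56 postnatal days old. Fits within a set, or with the set as a block, thus also divide the mice by age. The set held 1, 2 and 3 FD and 1, 2 and 2 fed AGRP libraries, and 3, 2 and 0 FD and 3, 0 and 2 fed POMC libraries, in that order. FD AGRP replicate 2, counted in the cell-number set, would fit the 1 µl set as well, since its volume by cell number is 1 µl. Each library was 1 mouse.

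The members and gene lists were chosen with earlier results of these data known. Genes named were Sec61a1, Sec24d and Srp68, the 12 called members with the highest and the 12 with the lowest log2 fold change in each comparison, all members called in the test of the changes, the 5 members with the highest and the 5 with the lowest mean TPM, the paralog families, and the 5 called other route genes with the largest change. Further members were named to account for each functional group, after their values were seen.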

Additional observations from a re-analysis of the deposited data

Results flagged for a closer look

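Single libraries stood apart from the rest of their group, by the gap to the nearest library relative to the group's range, in 10 of 176 gene and group sets, and chance gives about 5%. For levels over 50 TPM these were Sec11a in FD AGRP replicate 5 (163 TPM, the nearest at 96.4), Sec23b in fed POMC replicate 5 (85.1, nearest 54.3), Srp68 in fed POMC replicate 4 (142, nearest 98.6), Srp9 in FD POMC replicate 5 (492, nearest 332), and Tmed9 in fed AGRP replicate 1 (153, nearest 96.7) and FD POMC replicate 2 (257, nearest 170.0). At low levels they were Copz2 in fed AGRP replicate 5 (0.801 TPM, nearest 0) and Tmed6 in FD AGRP replicate 3 (2.54), fed AGRP replicate 5 (6.04) and fed POMC replicate 5 (2.20).

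The AGRP change exceeded the POMC change in 20 members by the edgeR test of that difference. For the signal recognition particle and its receptor the log2 differences were 1.10 (Srp68), 1.55 (Srpr) and 1.43 (Srprb). For the channel and its associated complex they were 2.13 (Sec61a1), 2.82 (Sec61b), 0.95 (Ssr1), 1.12 (Ssr2) and 2.12 (Ssr4). Signal peptidase members differed by 1.26 (Sec11a), 1.85 (Sec11c) and 0.85 (Spcs2). COPII members differed by 1.47 (Sec13), 1.59 (Sec23b), 2.25 (Sec24d) and 0.75 (Sec31a). COPI members differed by 0.97 (Arcn1), 0.83 (Copa), 1.13 (Copb2) and 1.35 (Cope), and Tmed9 by 1.39.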

How the results depend on the processing

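In AGRP neurons, FD against fed, 27 members were higher, 1 lower and 8 passed the stricter rule. Limma-voom, no count filter and the spike-in set as a block each left 0 lower, as did the compared groups alone, where the only lower member, Sec16b, was not tested. Library totals alone gave 11 higher and 3 by the stricter rule. Spike-in scaling per cell gave 0, 0 and 0, the 10 µl set 3, 0 and 2, and the cell-number set 0, 0 and 0 (higher, lower, stricter). In POMC neurons DESeq2 called 2 lower, both by the stricter rule. For the difference of the changes, library totals alone gave 13 higher and 9 by the stricter rule, and spike-in scaling 0 and 0. For fed AGRP against fed POMC neurons limma-voom called 2 higher, where it called 738 of all 16513 genes higher. The spike-in set as a block gave 5 lower, where 842 of all genes were, and spike-in scaling gave 0, 0 and 0. In FD mice limma-voom left 0 lower, and spike-in scaling gave 5 higher, 0 lower and 5 by the stricter rule. Spike-in scaling moved the median of all genes to -1.11 in POMC neurons, 1.04 for the difference of changes and 1.10 in FD mice. The causes were not tested.

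Same-numbered libraries were different mice, and their deviations correlated from -0.189 to 0.122. Pairs with different numbers were not set beside them, so this does not show whether the numbers mark a shared preparation. With the replicate block, 17 members were higher and 0 lower in AGRP neurons, where 846 of all 16513 genes were higher and 642 lower. For the difference of changes 14 members were higher (11 by the stricter rule), where 545 of all genes were. In fed mice 0 members were higher, where 524 of all genes were.

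Leaving out 1 library at a time, AGRP calls ranged from 17 to 29 higher, 0 to 1 lower and 6 to 11 by the stricter rule. The lowest, 17, came without fed replicate 1 or FD replicate 4. Over all genes the higher calls in AGRP neurons ranged from 709 to 1066 in these fits. POMC calls ranged from 0 to 1 lower and 0 to 1 by the stricter rule. Calls on the difference of changes ranged from 16 to 22 (11 to 17 stricter), where 539 to 759 of all genes were called higher. Those in fed mice ranged from 0 to 1 higher and 2 to 4 lower (2 to 4 stricter). Over all genes they ranged from 435 to 514 higher and 534 to 725 lower. Those in FD mice ranged from 25 to 32 higher (14 to 18 stricter), where 1366 to 1557 of all genes were.

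Small POMC values changed sign. Arcn1 was -5.93e-05 with the compared groups alone, -1.03 with spike-in scaling and -0.0421 in the 1 µl set, and Srp68 -1.01 with spike-in scaling and -0.0159 in the 1 µl set, where Srprb was 0.0213. With 1 library left out, log2 values ranged from -0.0439 to 0.0610 for Arcn1, -0.40 to 0.0045 for Sec24d, -0.13 to 0.0366 for Sec31a, -0.0215 to 0.22 for Srp68 and -0.0839 to 0.0127 for Ssr1. In fed mice, AGRP against POMC, Srp68 ranged from -0.0510 to 0.20. No gene with under 3 counts in a group can be given a fold at this depth.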
